A study of Mus musculus with 6 samples.

Results

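Brevican, neurocan, versican and aggrecan form the lectican (hyalectan) family of chondroitin sulfate proteoglycans. Their transcripts are described here in mouse retinal pigment epithelium (RPE) together with those of the 4 hyaluronan and proteoglycan link proteins and of the membrane proteoglycans Cspg4 and Cspg5. The 10 genes were matched by symbol and were all present among the 54532 genes of the deposited count table. The family was selected on the measured Abca4KO against WT difference of Bcan in these same libraries, so its comparison between genotypes is a description without p-values.

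RNA of the RPE, the pigmented layer behind the photoreceptors, was sequenced in bulk from 3 wild-type (WT) mice of the strain 129S1/SvlmJ and 3 Abca4-/- mice (Abca4KO) of the Jackson line Abca4tm1Ght/J. Mice of both genotypes carried the Leu450 variant of Rpe65, were kept in cyclic light on standard diet, and were sampled 5 h after light onset. The line and the genotype change together, so their contributions cannot be told apart, and ages and sexes are not given in the sources used here. Abca4 loss is constitutive and is not restricted to the RPE.

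Total counts lay between 17047286 and 19841307 per library. RPE markers were abundant in every library, with the 14 genes of that list at a mean of 9.96 to 10.25 log2 CPM (scaled counts-per-million). Between genotypes, 8 of them had a positive and 6 a negative log2 fold change, Abca4KO minus WT. Their mean level was 9.96 to 10.23 in WT and 10.17 to 10.25 in Abca4KO libraries (exact permutation p = 0.4, adjusted 0.6). Abca4 itself stood at 952 ± 18.1 CPM in WT against 36.2 ± 3.31 in Abca4KO (SD, n = 3 each), so all 6 libraries matched their labels. Markers of rods, glia, myelin and vessels were also detected and varied between libraries, so the tissue held other cells. WT library 2 differed most from the rest, with a chi-square per degree of freedom of 42.5 to 62.4 against each other library where the other pairs lay at 13.5 to 50.3, and Abca4KO library 1 had the highest rod markers. A log2 fold change of 2.38 was found for Bcan without WT library 2, and 2.45 without both. In bulk RNA, fewer cells of a type and less RNA per cell cannot be told apart.

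Lecticans bind hyaluronan through a globular domain at the amino terminus and tenascins through a lectin-like domain at the other end, and link proteins hold the hyaluronan bond in place. Together they build the hydrated matrix of cartilage and the perineuronal nets around neurons. Brevican and neurocan are mainly products of the nervous system, aggrecan is the main proteoglycan of cartilage, and versican is widespread in loose connective tissue. ADAMTS proteases cut the lectican core proteins, and gene-level counts do not separate the secreted form of brevican from its membrane-anchored form.

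In the genome each lectican lies beside a link protein gene. The counts cover 4 such pairs, with 0 annotated genes between the partners. Acan and Hapln3 on chromosome 7 end tail to tail 2 bases apart, Ncan and Hapln4 on chromosome 8 lie tail to tail 2.22 kb apart, and Hapln1 and Vcan on chromosome 13 lie tail to tail 43.7 kb apart. Bcan and Hapln2 on chromosome 3 are the exception among them. They are read in the same direction, with Hapln2 upstream and 21.5 kb between them. Cspg4 and Cspg5 both lie on chromosome 9.

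The promoters of Bcan, of its neighbour Hapln2 and of Cspg4 are printed because Bcan and Cspg4 were the tested members whose libraries did not overlap between genotypes and Hapln2 was the nearest member to Bcan. Each window runs from 250 bases before to 50 bases after the RefSeq start site in GRCm38.p6, read 5′ to 3′ on the gene's own strand, which is minus for Bcan (chr3:88000307-88000606) and Hapln2 (chr3:88027462-88027761) and plus for Cspg4 (chr9:56864854-56865153). Capitals mark matches, on either strand, to 4 sets of letters, which are CCAAT, known as a box of that name, GGGCGG for the GC box, TATAAA for the promoter element near many start sites, and AACAAT for a core bound by SOX factors.
Bcan: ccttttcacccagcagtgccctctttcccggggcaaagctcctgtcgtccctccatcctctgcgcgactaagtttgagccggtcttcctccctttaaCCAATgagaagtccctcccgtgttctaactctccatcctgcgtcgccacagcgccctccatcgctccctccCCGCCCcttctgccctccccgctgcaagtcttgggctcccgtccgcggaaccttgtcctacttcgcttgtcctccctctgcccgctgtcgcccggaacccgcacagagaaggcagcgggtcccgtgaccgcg
Hapln2: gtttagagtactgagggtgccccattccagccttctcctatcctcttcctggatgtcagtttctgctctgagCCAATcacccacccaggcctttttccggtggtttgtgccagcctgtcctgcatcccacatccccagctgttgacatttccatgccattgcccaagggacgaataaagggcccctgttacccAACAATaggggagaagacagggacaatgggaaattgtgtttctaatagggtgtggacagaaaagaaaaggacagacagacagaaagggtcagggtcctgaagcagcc
Cspg4: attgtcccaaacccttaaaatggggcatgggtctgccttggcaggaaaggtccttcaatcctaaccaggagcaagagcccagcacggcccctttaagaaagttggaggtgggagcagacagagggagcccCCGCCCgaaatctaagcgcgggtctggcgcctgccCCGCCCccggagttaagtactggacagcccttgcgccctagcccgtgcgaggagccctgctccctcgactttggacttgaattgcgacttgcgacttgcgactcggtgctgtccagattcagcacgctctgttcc
The Bcan window held 24 CpG pairs and 64.0% G or C. It had 1 CCAAT, starting 153 bases before the start site, and 1 GC box, which on the printed strand reads CCGCCC. The Hapln2 window held 2 CpG pairs and 52.0% G or C, with 1 CCAAT and 1 AACAAT. The Cspg4 window held 17 CpG pairs, 60.0% G or C and 2 GC boxes. Over 32851 promoter windows of the same length the medians were 7 CpG pairs and 52.7% G or C. Of those windows 37.4% held CCAAT, 35.7% the GC box, 13.6% TATAAA and 10.7% AACAAT, so each of these matches is common. The matches overlapped nowhere in the printed windows. Promoters of 8 of the 10 members were in the RefSeq table, and Hapln4 and Cspg5 were without an entry.

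Bcan (ENSMUSG00000004892, chr3:87987531-88000230, minus strand, mm10) encodes brevican. It measured 11.7, 16.5 and 18.1 CPM in WT libraries 1, 2 and 3, and 67.8, 81.2 and 82.9 CPM in Abca4KO libraries 1, 2 and 3. The lowest Abca4KO library was far above the highest WT library, and the values rest on 223 to 333 raw reads per WT library and 1337 to 1574 per Abca4KO library. The log2 fold change, Abca4KO minus WT, was 2.32 (SE 0.18), a 5.00-fold difference in mean CPM. Bcan overlapped no other gene of the deposited table and shared no stretch of at least 75 bases at 95% identity or more with transcripts of another gene, so its count does not depend on a stated strand or on a similar copy.

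Of the 10 members, 6 had enough reads to be tested across all genes (edgeR's quasi-likelihood test, Benjamini-Hochberg adjusted p under 0.05). Bcan was the 1 member called, beside a background of 0.0461% of 17340 tested genes called in either direction and 0.0346% called higher in Abca4KO. The rule that chose the family used this contrast, so nothing is read from that count. It was not called without Abca4KO library 2 or without Abca4KO library 3, when 0 members passed, although its log2 fold change stayed between 2.16 and 2.46 with any 1 library left out. The median log2 fold change of the 6 tested members was 0.07, against -0.01 over all tested genes.

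The other lecticans were sparse. Vcan (ENSMUSG00000021614, chr13:89655312-89742509), which encodes versican, measured 5.18, 3.92 and 5.55 CPM in WT and 9.64, 4.39 and 4.30 CPM in Abca4KO. Abca4KO library 1 was the high sample and the other Abca4KO libraries lay within the WT range, so the genotypes overlapped. Its log2 fold change of 0.32 (SE 0.37) became -0.17 without Abca4KO library 1. That library also had the highest mean level of the 14 rod markers, 6.89 log2 CPM against 4.57 to 5.99 in the other libraries, and the part of rod RNA in the Vcan value was not tested. Up to 140 reads over the 6 libraries fell in Gm4117, which overlaps Vcan on the opposite strand, against 623 in Vcan, so the Vcan count is uncertain to that extent.

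Ncan and Acan were near the detection limit, where 3 reads correspond to between 0.152 and 0.174 CPM. Ncan, which encodes neurocan, had 6, 3 and 7 reads in the WT libraries and 0, 0 and 10 in the Abca4KO libraries. Acan, which encodes aggrecan, had 0, 1 and 8 reads in WT and 7, 8 and 0 in Abca4KO. For Ncan the Abca4KO libraries lay on both sides of the WT range, for Acan they lay within it, and no difference was detectable at this depth. Per kb, the mean of each stayed below that of Vcan.

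**Figure D1:**
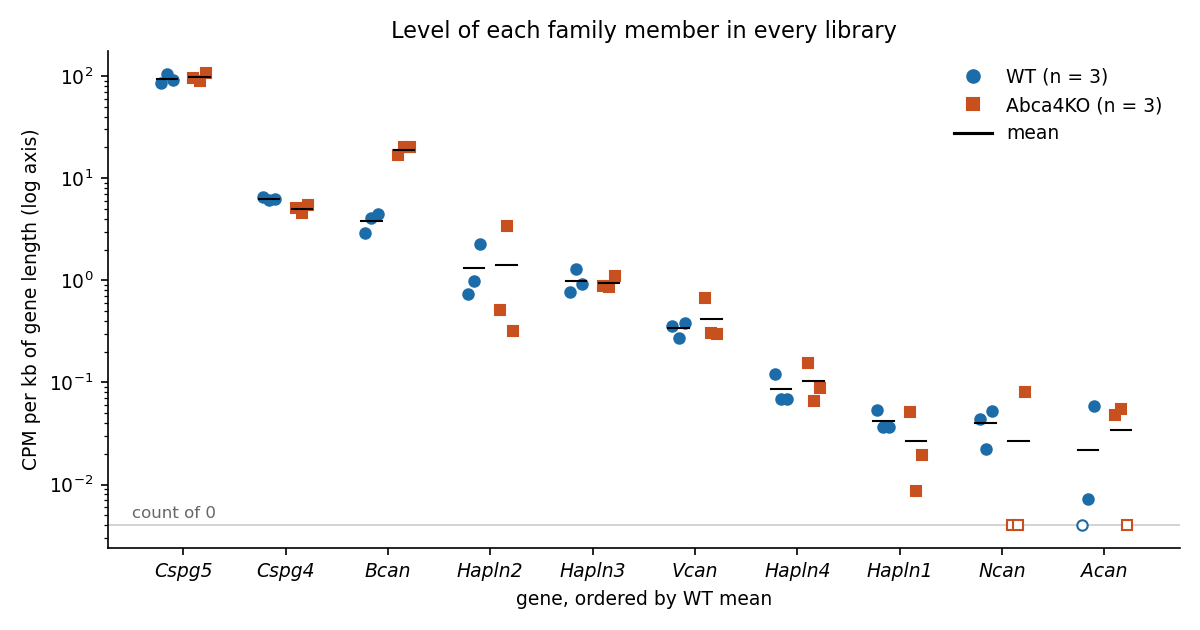
Level of the 10 members in each library as CPM per kb of gene length on a log axis, with 3 points per genotype (circles WT, squares Abca4KO), black bars for the means and open symbols on the lower line for a count of 0. Bcan lies at 2.87 to 4.46 in WT and 16.7 to 20.4 in Abca4KO, and Cspg5 is the highest gene in every library.

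Per kb of gene length, the scale on which genes can be compared, the WT order ran from Cspg5 at 93.998 ± 9.88 CPM per kb through Cspg4 at 6.24 ± 0.218 and Bcan at 3.80 ± 0.827 to Hapln2 at 1.33 ± 0.830, Hapln3 at 0.986 ± 0.269 and Vcan at 0.338 ± 0.0592 (SD, n = 3 each). Hapln4 followed at 0.0860 ± 0.0296 CPM per kb. Hapln1, Ncan and Acan came last, at means of 0.0422, 0.0397 and 0.0218 CPM per kb. Neighbours in this order that overlapped over the WT libraries were Hapln2 with Hapln3, and Hapln1, Ncan and Acan with each other. In Abca4KO, Bcan at 19.02 ± 2.03 CPM per kb stood above Cspg4 at 5.03 ± 0.456 (SD, n = 3 each), so that these 2 genes had exchanged places without overlap in either genotype.

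None of the 3 link proteins on other chromosomes, nor Hapln2 beside Bcan, separated the genotypes. Hapln2 (ENSMUSG00000004894, chr3:88021750-88027583), also known as Bral1, is a link protein of the nodes of Ranvier along myelinated axons. It measured 1.73, 2.31 and 5.39 CPM in WT and 1.22, 8.05 and 0.755 CPM in Abca4KO. The highest and the lowest libraries were both Abca4KO, so the genotypes overlapped throughout. Its log2 fold change was 0.09 (SE 0.88) and became -1.66 without Abca4KO library 2.

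Several myelin genes showed the same libraries as high. Mbp, which encodes myelin basic protein, measured 160.1, 353 and 545 CPM in WT and 164.4, 584 and 63.6 CPM in Abca4KO. Mobp, another myelin protein gene, measured 22.6, 73.4 and 139.96 CPM in WT and 35.5, 166.9 and 5.52 CPM in Abca4KO. Abca4KO library 2 was the highest and WT library 3 the next highest for Hapln2, Mbp, Mobp and Mog, and Abca4KO library 3 was the lowest for Hapln2, Mbp and Mobp. These myelin genes were picked for display after their values were seen. Mag was highest in WT library 3, at 20.6 CPM against 20.2 in Abca4KO library 2. Of all 15 oligodendrocyte lineage markers, 9 were highest in Abca4KO library 2, 3 in WT library 3, 2 in Abca4KO library 1 and 1 in WT library 1, and for 10 of the 15 the top pair was Abca4KO library 2 and WT library 3. Between genotypes, 14 of the 15 were tested, 5 had a positive and 9 a negative log2 fold change, and they averaged between 3.44 and 4.97 log2 CPM over the WT libraries and between 3.08 and 5.11 over the Abca4KO libraries. Opalin was at 0 in WT library 1 and Gpr17 at 0 in WT library 2. The part of myelinating cells in the Hapln2 values was not tested.

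**Figure D2:**
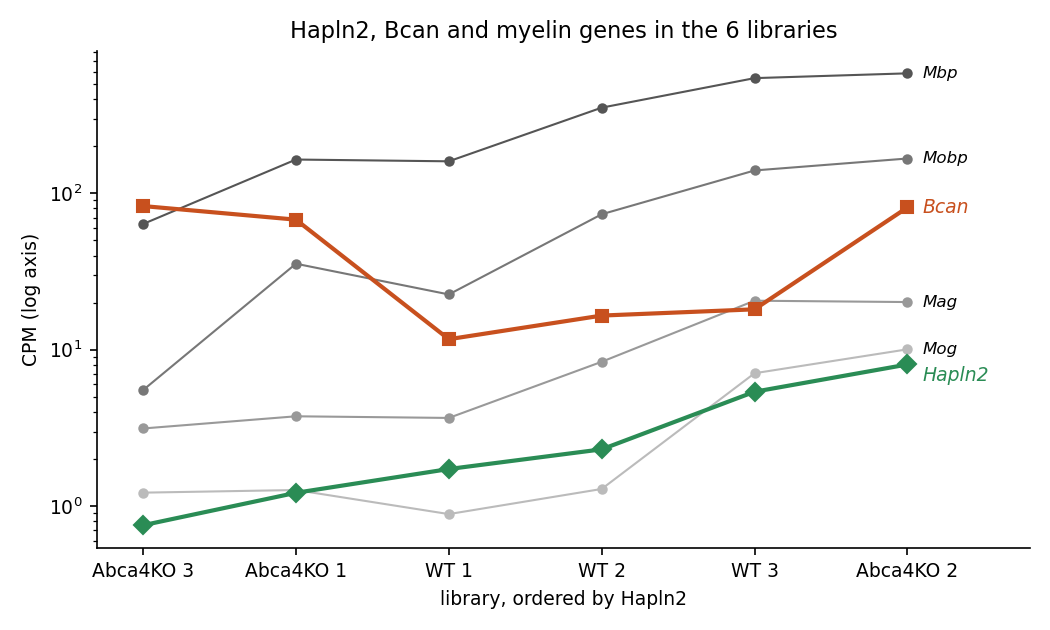
CPM on a log axis of Hapln2 (diamonds), Bcan (squares) and the myelin genes Mbp, Mobp, Mag and Mog (grey circles) in the 6 libraries, ordered from left to right by Hapln2, with lines joining the values of a gene. Hapln2 spans 0.755 to 8.05 CPM and its top library is also the top one for Mbp, Mobp and Mog, whereas Bcan is high in the 3 Abca4KO libraries wherever they stand in that order.

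Within WT, Bcan shared the Hapln2 order, and both genes rose from library 1 to library 3. Over the Abca4KO libraries it did not. Bcan measured 67.8, 81.2 and 82.9 CPM in Abca4KO libraries 1, 2 and 3, while libraries 2 and 3 held the highest and the lowest Hapln2 values. The part of myelinating cells in the Bcan value was not tested. Markers of the neural cells of the retina went in both directions. Of 15 Muller glia and astrocyte markers, 4 had a positive and 11 a negative log2 fold change, and they averaged between 5.60 and 6.18 log2 CPM over the WT libraries and between 5.49 and 5.96 over the Abca4KO libraries (exact permutation p = 0.5, adjusted 0.643). Of 15 retinal neuron markers, 10 were positive and 5 negative, averaging between 1.62 and 2.64 over the WT libraries and between 2.05 and 2.85 over the Abca4KO libraries (exact permutation p = 0.4, adjusted 0.6). Of 14 rod markers, 13 were positive and 1 negative, averaging between 4.57 and 5.99 over the WT libraries and between 5.15 and 6.89 over the Abca4KO libraries (exact permutation p = 0.7, adjusted 0.788), and the rod difference turned negative without WT library 2 or without Abca4KO library 1. The part of these cells in the Bcan value was not tested. The oligodendrocyte precursor factor gene Olig2 measured 0.06 to 1.09 CPM over the 6 libraries, and Pdgfra, a receptor gene of precursors that fibroblasts also express, measured 58.7 to 73.0 CPM.

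Hapln3, which encodes a link protein found outside the nervous system as well, measured 2.67, 4.51 and 3.21 CPM in WT and 3.10, 3.04 and 3.84 CPM in Abca4KO. All Abca4KO libraries lay inside the WT range (log2 fold change -0.06, SE 0.30). Hapln1, the link protein of cartilage, had 6, 4 and 4 reads in WT and 6, 1 and 2 in Abca4KO. Hapln4, a link protein of perineuronal nets, had 9, 5 and 5 reads in WT and 12, 5 and 6 in Abca4KO. Both were too sparse to be tested and overlapped between genotypes. Hapln1 also overlaps the pseudogene Gm8546 on the opposite strand, which held 28 reads against 23 in Hapln1, so its count is uncertain.

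The membrane proteoglycans were the best measured members. Cspg5 (ENSMUSG00000032482, chr9:110243783-110262576), which encodes neuroglycan C, a transmembrane proteoglycan with a growth factor-like domain, measured 863, 1057 and 921 CPM in WT and 967, 902 and 1069.6 CPM in Abca4KO. The genotypes overlapped, with a log2 fold change of 0.05 (SE 0.11). Its level was as high as that of Abca4 in WT, which is a comparison of CPM and not per length. Its transcripts shared short stretches of up to 136 bases at 95% identity or more with those of 34 other genes, and Gm43622 on the opposite strand held 872 reads against 108026 in Cspg5.

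Cspg4 (ENSMUSG00000032911, chr9:56865033-56899870) encodes NG2, a transmembrane proteoglycan of pericytes and oligodendrocyte precursors. It measured 77.3, 72.2 and 73.8 CPM in WT and 60.7, 54.2 and 65.0 CPM in Abca4KO. The knockout libraries were all lower than the WT ones, with a log2 fold change of -0.31 (SE 0.09). Among all tested genes, 6.85% had their knockout libraries all under the WT range, and 1 of the 6 tested members did. For the opposite order the background was 5.93%, and Bcan was the 1 tested member with it.

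Markers of mural cells, which include pericytes, mostly had a positive log2 fold change, but several were near 0. Those were Pdgfrb (0.004), Kcnj8 (0.05), Tagln (0.09) and the negative Acta2 (-0.01). Myh11 (0.70), Rgs5 (0.62) and Abcc9 (0.45) lay above WT in all Abca4KO libraries, beside 5.93% of all tested genes. Of 9 tested mural markers, 8 had a positive log2 fold change, and they averaged between 4.55 and 4.61 log2 CPM over the WT libraries and between 4.74 and 5.00 over the Abca4KO libraries (exact permutation p = 0.1, two-sided, the smallest that 3 against 3 libraries allow, and 0.3 after adjustment over 9 marker lists). Pdgfrb, the platelet-derived growth factor receptor gene of pericytes, stood at 101.0 ± 8.58 CPM in WT against 101.3 ± 17.6 in Abca4KO (SD, n = 3 each). All 10 endothelial markers had a positive log2 fold change, and they averaged between 4.62 and 5.31 log2 CPM over the WT libraries and between 5.35 and 5.98 over the Abca4KO libraries (exact permutation p = 0.1, adjusted 0.3). Of 12 tested fibroblast, sclera and cartilage markers 8 were positive, averaging between 4.70 and 4.88 over the WT libraries and between 4.90 and 5.01 over the Abca4KO libraries (exact permutation p = 0.1, adjusted 0.3). Of 9 melanocyte markers, 6 were positive and 3 negative. They averaged 7.63 to 8.08 log2 CPM over WT and 7.96 to 8.19 over Abca4KO libraries (exact permutation p = 0.3, adjusted 0.6). Kit (log2 fold change -0.44) was the 1 melanocyte marker below WT in all Abca4KO libraries, and 3 were above. The shares of all tested genes were 6.85% below and 5.93% above. The part of vessel cells, connective tissue cells and melanocytes in the values of Bcan or Cspg4 was not tested.

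**Figure D3:**
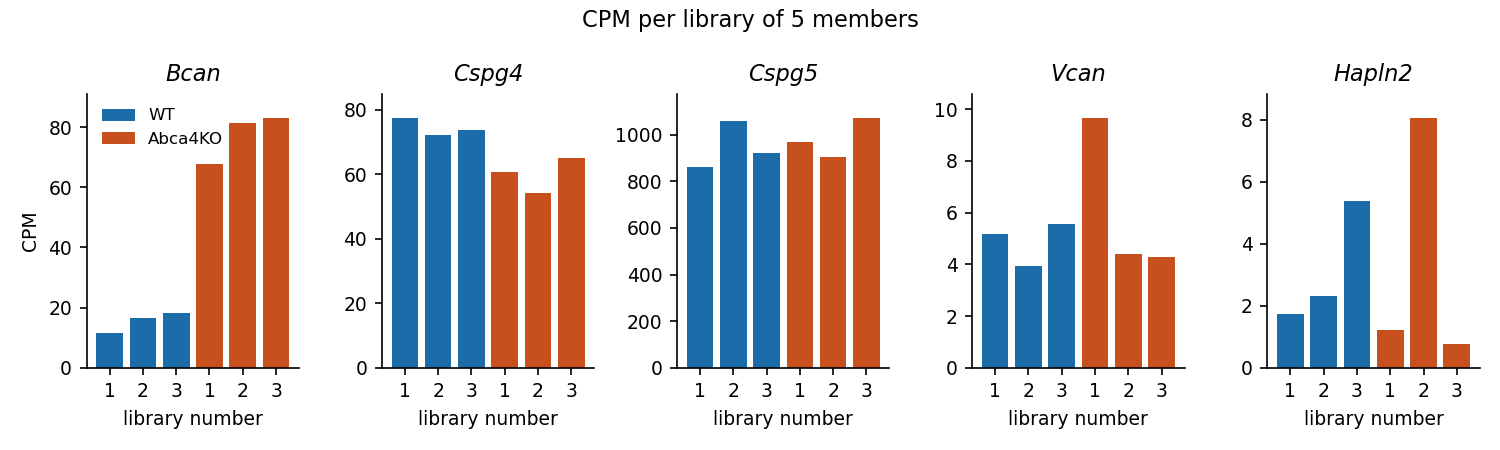
CPM in each library of Bcan, Cspg4, Cspg5, Vcan and Hapln2, with blue bars for WT libraries 1 to 3 and orange bars for Abca4KO libraries 1 to 3 and a separate axis from 0 for each gene. Bcan and Cspg4 separate the genotypes in opposite directions, Cspg5 overlaps between them, and the top library of Vcan and of Hapln2 is a single Abca4KO library.

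The genes around Bcan were examined because it lies on the same chromosome as the Abca4 gene altered in the knockout line, 34.0 Mb away. Chromosome 3 held 884 of the 17340 tested genes and, beside Abca4 and Bcan themselves, 1 of the other 6 genes called across the genome, Npr1. With their nearer end within 250 kb of Bcan, 20 other genes, Hapln2 included, were tested with a mean of at least 1 CPM, of which 5 had a positive and 15 a negative log2 fold change, with a median of -0.13. edgeR called 0 of the 20, and 3 of them (Gm19439, Rrnad1 and Arhgef11) had an unadjusted p under 0.05, beside 7.02% of all tested genes. The limma-voom test called 0, beside a background of 0.0519%, and DESeq2 called 1, Gm19439, beside 0.657%. The highest log2 fold change among them was 0.26.

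Nes, which encodes the intermediate filament nestin and whose nearer end is 7.08 kb from Bcan, measured 19.3, 34.8 and 19.1 CPM in WT and 9.95, 13.8 and 20.3 CPM in Abca4KO. The genotypes overlapped for Nes (log2 fold change -0.74, SE 0.33). The predicted gene Gm19439, on the opposite strand beyond Hapln2 and with its start site 30.6 kb upstream of that of Bcan, measured 2.20, 2.36 and 2.72 CPM in WT and 0.203, 0.413 and 0.349 CPM in Abca4KO. Its libraries did not overlap, with 42 to 50 raw reads per WT library and 4 to 8 per Abca4KO library (log2 fold change -2.89, SE 0.42, adjusted p = 0.186 in edgeR's quasi-likelihood test and 0.00118 in DESeq2). Rrnad1 lay above WT in all Abca4KO libraries (log2 fold change 0.26) and Arhgef11 below (-0.31). Of all tested genes, 5.93% lay above WT in this way and 6.85% below. Rrnad1 shares bases with Mrpl24 and Isg20l2 on the other strand.

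**Figure D4:**
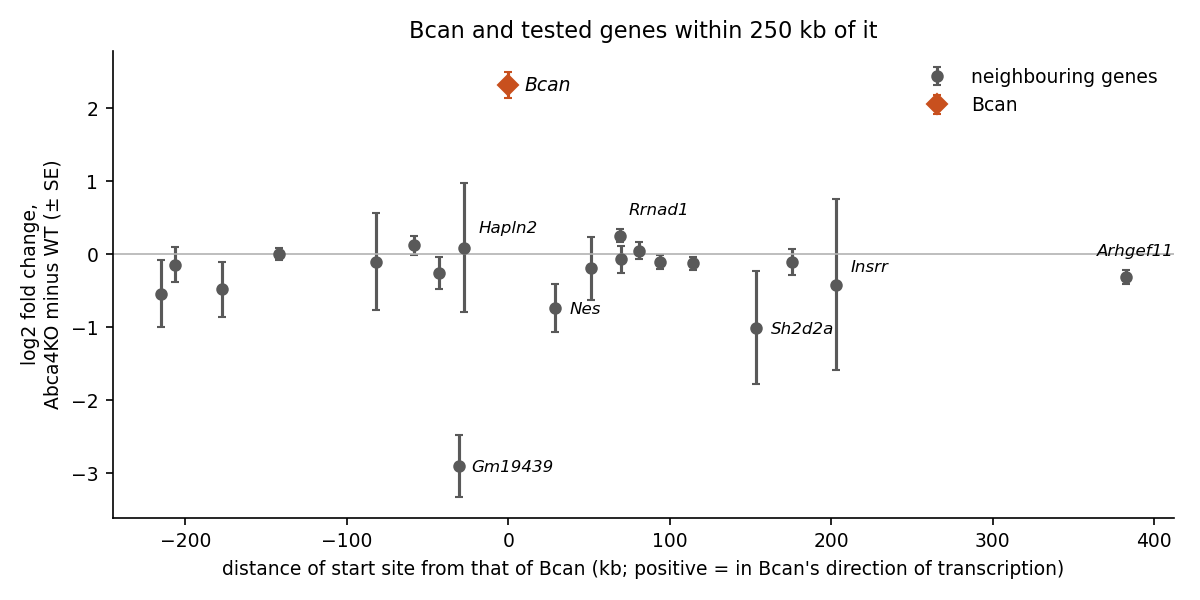
Log2 fold change, Abca4KO minus WT, with SE, of Bcan (diamond) and the 20 tested genes whose nearer end is within 250 kb of it (circles), by the distance of each start site from that of Bcan in kb, positive in the direction in which Bcan is read. Bcan stands at 2.32 and Gm19439 at -2.89, while Hapln2 and the rest lie between -1.01 and 0.26.

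Genes with the profile most like Bcan were ranked by the root mean square difference between their log2 CPM and that of Bcan over the 6 libraries, after centring each gene. The 11503 candidates were tested genes averaging 5 CPM or more, leaving out Gm-numbered symbols, Rik clones and annotated pseudogenes. The called genes Gm7901 (log2 fold change 2.48) and Gm9347 (4.49) were thus not ranked. Among the candidates, the nearest were the non-coding Cep83os at 0.44 and Orm1, which encodes an acute-phase plasma glycoprotein, at 0.50. Slco1c1, a thyroid hormone transporter gene, followed at 0.59, Tnc at 0.65 and Htr2b, a serotonin receptor gene, at 0.67. The median of all candidates was 1.20. Orm1 measured 4.03, 2.58 and 3.43 CPM in WT and 8.93, 25.6 and 19.1 CPM in Abca4KO. Slco1c1 measured 58.7, 42.6 and 53.9 CPM in WT and 128.1, 124.5 and 135.1 CPM in Abca4KO. Htr2b lies on the opposite strand of the abundant Psmd1, so its count is uncertain. Slco1c1 and Cep83os were among the 8 genes called by edgeR and rose. This measure picks genes that differ between the genotypes and is no test.

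Tnc encodes tenascin-C, a matrix glycoprotein that lecticans bind, and belongs to the list of lectican partners as well. It measured 3.61, 7.03 and 6.04 CPM in WT and 9.996, 10.99 and 13.3 CPM in Abca4KO. All Abca4KO libraries were above all WT libraries, with a log2 fold change of 1.04 (SE 0.27), and Tnc did not pass (edgeR adjusted p = 0.587). Tnr, which encodes the nervous system tenascin and main brevican partner, stood at 4.01 ± 2.12 CPM in WT against 5.94 ± 2.13 in Abca4KO (SD, n = 3 each, edgeR adjusted p = 0.846). Ptprz1, a receptor phosphatase gene that itself yields a chondroitin sulfate proteoglycan, measured 31.9 ± 5.35 against 22.4 ± 4.51 CPM (SD, n = 3 each, edgeR adjusted p = 0.679).

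The other genes of the hyaluronan and chondroitin sulfate pathway did not pass the test. Of 125 such genes in 7 lists, 112 were tested and 0 were called by edgeR in either direction, while limma-voom called 0 and DESeq2 called 3 (Fbn1 lower, Selp and Mmp3 higher), against backgrounds of 0.0519% and 0.657%. At an unadjusted p under 0.05 there were 17 (10 higher, 7 lower), which is 15.2% beside a background of 7.02% of all tested genes. In 67 of the 112 the log2 fold change was positive, with a median of 0.08.

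Of 21 tested partners and receptors of lecticans, 13 had a positive log2 fold change and the median was 0.09. Fbn1, the gene of the microfibril protein fibrillin-1, stood at 409 ± 26.6 CPM in WT against 288.3 ± 27.9 in Abca4KO (SD, n = 3 each, with a log2 fold change of -0.50, edgeR adjusted p = 0.393), and its relative Fbn2 17.04 ± 1.61 against 23.6 ± 0.721 CPM (SD, n = 3 each, log2 fold change 0.47, edgeR adjusted p = 0.546). The libraries of both separated the genotypes, in opposite directions, without either passing in edgeR. Of all tested genes, 12.8% separated the genotypes in this way, counting both directions. Selp, which encodes the adhesion receptor P-selectin of activated endothelium and platelets, measured 1.62, 1.34 and 0.817 CPM in WT and 3.50, 3.92 and 5.75 CPM in Abca4KO (log2 fold change 1.79, edgeR adjusted p = 0.463), beside the endothelial marker levels given above.

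Of 16 tested proteases and inhibitors, 9 were positive and the median log2 fold change was 0.13. The stromelysin gene Mmp3 measured 41.0, 40.0 and 31.2 CPM in WT and 50.3, 92.4 and 55.6 CPM in Abca4KO (log2 fold change 0.82, edgeR adjusted p = 0.616). The membrane protease gene Mmp14 had a log2 fold change of 0.33 and Adamts15 one of 0.62, both without passing (edgeR adjusted p = 0.679 and 0.706). Adamts4, which encodes a protease that cuts brevican and aggrecan, stood at 2.62 ± 0.192 CPM in WT against 2.22 ± 0.984 in Abca4KO (SD, n = 3 each, edgeR adjusted p = 0.929).

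No hyaluronan gene passed the test with all 6 libraries. Of 8 tested genes of hyaluronan synthesis, 7 were positive and the median log2 fold change was 0.10. Among those averaging at least 1 CPM, the smallest p-values were those of the precursor enzyme genes Ugp2 (0.21, edgeR adjusted p = 0.717), Gfpt1 (-0.22, the negative one) and Uap1 (0.05). The hyaluronan synthase gene Has2 measured 2.94 ± 0.772 against 3.24 ± 2.12 CPM (SD, n = 3 each). Of 12 tested genes of turnover and receptors, 6 were positive with a median of 0.06, and the hyaluronidase gene Hyal2 (log2 fold change 0.39, edgeR adjusted p = 0.712), Stab1 (0.28) and Layn (0.41), which encode hyaluronan receptors, had the smallest p-values. Stab1 overlaps the more abundant Nt5dc2 on the other strand, with 7593 against 27624 reads, and Hyal2 overlaps Gm9917, so both counts are uncertain. Cd44, the main hyaluronan receptor gene, measured 49.5, 88.9 and 38.2 CPM in WT and 49.2, 91.5 and 74.2 CPM in Abca4KO. Its log2 fold change was 0.28 (edgeR adjusted p = 0.900) with all libraries, 0.71 without WT library 2 (edgeR adjusted p = 0.357) and 0.90 without WT library 2 and Abca4KO library 1 (edgeR adjusted p = 0.0464), a subset chosen after the data were seen. Over its alternatives the adjusted p ranged from 0.0464 to 0.9998. Of 5 tested genes of heavy chain transfer onto hyaluronan, 4 were positive with a median of 0.17, and Itih5 (-0.27), Itih2 (0.35) and Itih3 (0.39) led by p.

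Chondroitin sulfate genes had medians near 0. Of 30 tested genes of chain assembly and breakdown, 16 were positive with a median of 0.02. Xylt1, which starts the chain, measured 63.7 ± 7.13 against 47.4 ± 6.99 CPM (SD, n = 3 each, log2 fold change -0.43, edgeR adjusted p = 0.616), the lysosomal sulfatase gene Arsb had a log2 fold change of -0.32 (edgeR adjusted p = 0.625), and Csgalnact1, which commits the chain to chondroitin, measured 6.70, 6.50 and 6.59 CPM in WT and 8.68, 8.72 and 8.48 CPM in Abca4KO (log2 fold change 0.39, edgeR adjusted p = 0.706). Of 20 tested other chondroitin sulfate proteoglycans, 12 were positive with a median of 0.05. Spock1, a testican gene, measured 375 ± 36.7 against 289.2 ± 29.0 CPM (SD, n = 3 each, log2 fold change -0.38), Tgfbr3, which encodes betaglycan, had one of -0.25 and Prg4, the lubricin gene, one of 0.64, all without passing (edgeR adjusted p = 0.616, 0.616 and 0.738). Prg4 overlaps the abundant Tpr on the other strand, so its count is uncertain.

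**Figure D5:**
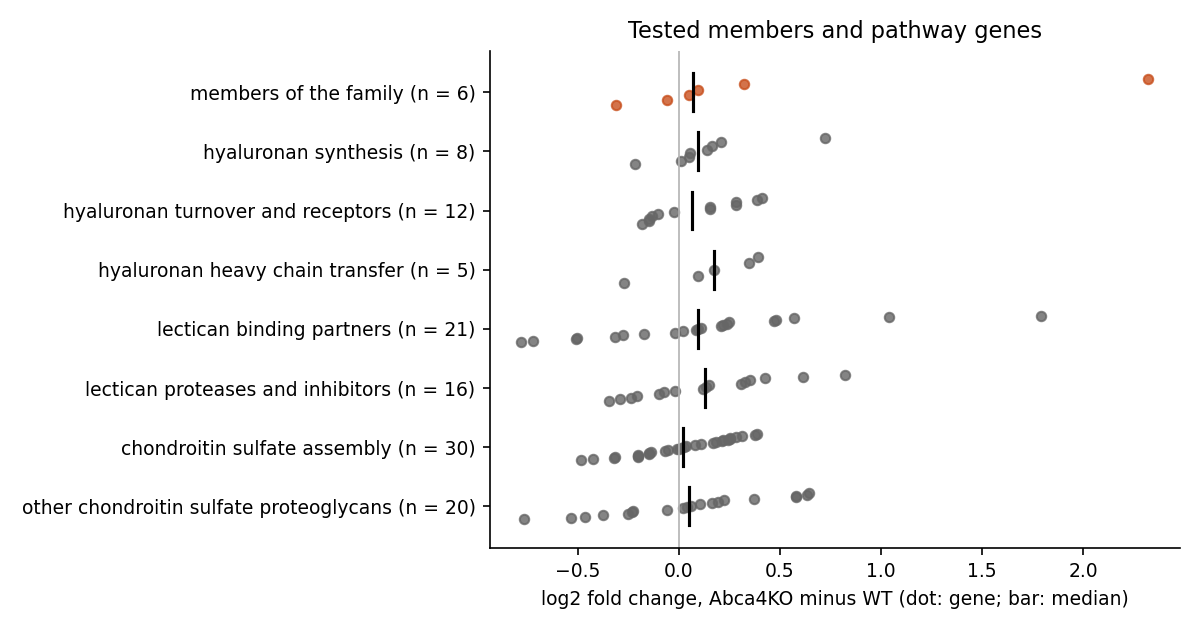
Log2 fold change, Abca4KO minus WT, of the 6 tested members (orange) and of the tested genes of 7 pathway lists (grey), with a dot per gene and a black bar at each median. Bcan at 2.32 is the farthest point to the right, Selp at 1.79 and Tnc at 1.04 follow, and the medians lie between 0.02 and 0.17.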

How the data were processed

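Bulk RNA-seq libraries of RPE from 3 WT and 3 Abca4KO mice were compared. The authors deposited raw read counts per gene, not normalized; the submitters' processing notes list STAR, HTSeq and mm10, with no versions. Annotation release and strand setting are not given in the sources used here. All 10 members had the same coordinates in GENCODE M21. Gene lengths are those of the deposited table.

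Genes were filtered with filterByExpr (minimum count 10, 17340 kept), scaled by TMM and tested with edgeR 4.0.16 in R 4.3.3 (quasi-likelihood, two-sided, no covariate, threshold 0.05 after Benjamini-Hochberg adjustment over all genes). The SE was taken as log2 fold change over root F. The fit was run on simulated counts with known changes, independent libraries and the same spread for all genes. That run does not cover differences between libraries of the kind seen here. Marker levels average the log2 CPM of a list (prior count 1). Alternatives were other size factors and filters, DESeq2 1.42.0, limma-voom 3.58.1, a replicate block and single libraries left out. A fit without WT 2 and Abca4KO 1 was added after the data were seen. Similar transcripts were searched with blastn 2.17.0. Pairs of libraries differed beyond counting noise (chi-square per degree of freedom at least 13.5). Floors of 3 counts cover counting error only.

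The members and gene lists were chosen with earlier results of these data known. Named genes were all members, Abca4, and up to 3 per pathway list by smallest p with a mean of at least 1 CPM. Tested genes within 250 kb of Bcan and the 5 most like it among the candidates described above were also named. Tnr, Ptprz1, Adamts4, Has2, Cd44, Mbp, Mobp, Mog, Mag, Opalin, Gpr17, Olig2, Pdgfra and Pdgfrb were chosen after their values were seen.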

Additional observations from a re-analysis of the deposited data

How the results depend on the processing

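The log2 fold change of Bcan stayed positive in all 14 alternatives, between 2.16 and 2.46, and that of Cspg4 stayed negative, between -0.37 and -0.24. The signs of Vcan, Hapln2, Hapln3 and Cspg5 changed among the alternatives. The genes past the threshold, 8 in all, were 19 without a filter, 114 with DESeq2, 3 to 11 with single libraries left out and 190 without WT 2 and Abca4KO 1. The members past it were 0 to 1 with single libraries left out, with 0 without Abca4KO 2 and without Abca4KO 3. The pathway genes past it were 3 with DESeq2 and 4 (Cd74, Fbn1, Xylt1 and Cd44) without WT 2 and Abca4KO 1. The causes were not tested. With libraries left out, Itih3 ranged from -0.28 (without Abca4KO 2) to 1.02 and Has2 from -0.54 (without Abca4KO 2) to 0.57. Marker level differences ranged from -0.24 to 0.64 log2 CPM for rods and from -0.80 to 0.21 for the oligodendrocyte lineage with single libraries left out, and the rod difference was -0.71 without WT 2 and Abca4KO 1. Deviations of same-numbered libraries correlated at 0.17, 0.34 and -0.08, and those of differently numbered ones at -0.37 to 0.31. Whether the replicate numbers pair the libraries is not known. With the replicate number as a block 9 genes, 1 member and 0 pathway genes passed, and Has2 stood at -0.0029. Low depth leaves Ncan, Acan, Hapln1 and Hapln4 without a test.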
